A study of Mus musculus with 8 samples.

Results

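The genes described here mark striatal projection neurons, the GABAergic medium spiny neurons that make up most of the striatum and are lost in Huntington's disease. The list holds 32 genes, and a gene was measured by every non-control probe set that the platform's gene table assigns to it alone. By this rule 30 of the 32 genes were measured, by 79 probe sets, among 17389 named genes with a usable probe set on the array. Adora2a and Itpr1 had no probe set named for them in the table used and are not analysed here. The list was drawn up with earlier results of these data in view.

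The arrays compared 2 mouse cell lines, SThdh7/7 and SThdh111/111, with 4 samples of each on Affymetrix expression arrays of total RNA, 8 arrays in all. Lines of these names were derived from the striatal primordium of embryos of Huntingtin knock-in mice and immortalised with a temperature-sensitive SV40 large T antigen, which both carry. Both Htt alleles of a line carry the polyglutamine tract that its name gives, short in SThdh7/7 and expanded in SThdh111/111. The labels give no age, passage, temperature or treatment, each genotype is 1 line, and no label says that the samples were separate cultures. Genotype and any other difference between the lines therefore cannot be told apart, and the p-values below reflect no more than the variation among the 4 samples of a line, which may be technical. The series title speaks of genes with reduced expression in Huntington's disease models and of their histones, so the question asked of each gene is whether it was lower in SThdh111/111.

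Projection neurons fall into a direct pathway population, with the dopamine receptor Drd1 and the peptides dynorphin (Pdyn) and substance P (Tac1), and an indirect pathway population, with the receptors Drd2, Adora2a and Gpr6 and the peptide enkephalin (Penk). In both, dopamine acts through the G protein subunit encoded by Gnal or its inhibitory counterparts on cAMP, which phosphodiesterases such as Pde10a and Pde1b degrade and which DARPP-32 (Ppp1r1b) relays. Loss of many of these transcripts is a known feature of striatal tissue in Huntington's disease and its mouse models.

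Most of these genes were dim in both lines by the main floor used here, though not by each array's own floor, given below. The floor used to judge this came from 27 probe sets for bacterial genes that the cells do not have. It was set at their 95th percentile on the array where that was highest, a log2 intensity of 7.02 (intensity 129.8). At the brightest probe set of each gene, 12 of the 30 genes lay above it on all 4 arrays of at least 1 line. These 12 were Cnr1, Htr1b, Penk, Gnal, Rgs9, Rgs4, Pde1b, Strn, Camk4, Kcnab1, Foxp1 and Ebf1, and 7 of them (Htr1b, Rgs9, Pde1b, Strn, Kcnab1, Foxp1 and Ebf1) did so in both lines. Another 10 genes crossed the floor on some arrays, and 8 (Drd1, Chrm4, Gpr6, Pdyn, Ppp1r1b, Ryr1, Gad1 and Slc32a1) did so on none. For comparison, 66.3% of all named genes lay above the floor on every array of a line, against 40.0% of these 30, and 15.7% lay below it on every array, against 26.7%. The label of the list names what the genes mark in tissue and is not a name for the lines. The markers went both ways. Drd1, Ppp1r1b and Slc32a1 were below the floor on every array, whereas Rgs9, Pde1b, Foxp1 and Ebf1 were above it on every array.

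The place of that floor matters for genes close to it. The bacterial probe sets were dimmer on the SThdh111/111 arrays, with a 95th percentile of 72.0 to 77.5 against 98.6 to 129.8 (intensity) on the SThdh7/7 arrays. Cnr1 was just inside, with a lowest SThdh7/7 value of 7.03, and Tac1 just outside, with a lowest SThdh111/111 value of 7.01. With each array judged by its own 95th percentile, 19 genes lay above the floor on all arrays of a line, the added ones being Tac1, Rasd2, Pde10a, Ptpn5, Scn4b, Gad2 and Bcl11b. The share of all named genes above that floor was not computed. SThdh7/7 samples 1 and 2 had median intensities of at least 173.9, against 136.2 to 147.0 on the other 6 arrays, and the results that turn on them are given without them too.

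**Figure D1:**
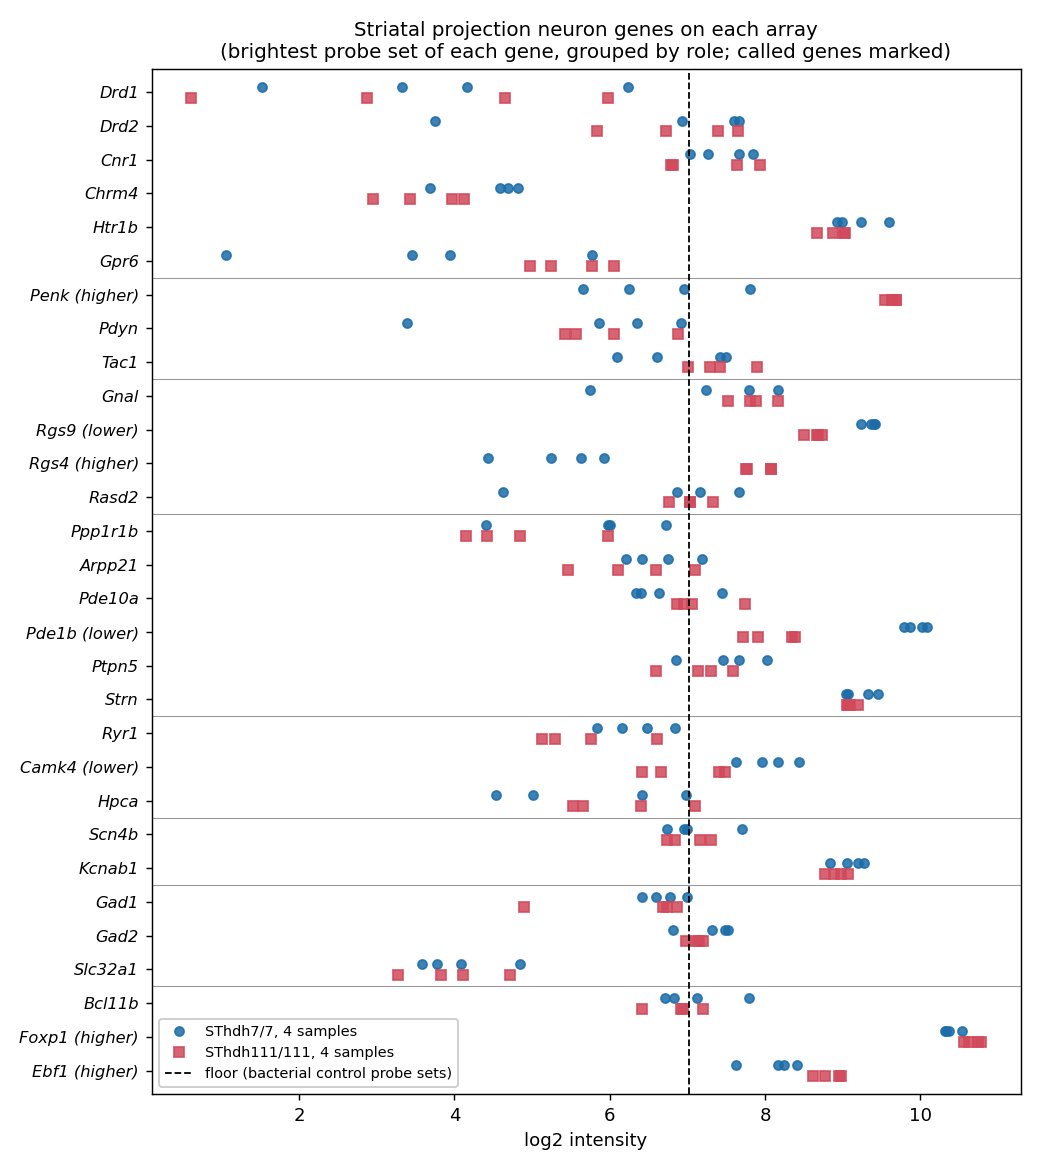
Log2 intensity of the brightest probe set of each of the 30 genes on each array (circles SThdh7/7, squares SThdh111/111, 4 samples each), with the floor at 7.02 as a dashed line and genes ordered by role. The lines do not overlap for Penk, Rgs4, Rgs9, Pde1b, Camk4, Foxp1 and Ebf1, while Drd1, Chrm4, Gpr6, Pdyn, Ppp1r1b, Ryr1, Gad1 and Slc32a1 stay left of the floor in both lines.

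Between the lines, 4 of the 30 genes rose in SThdh111/111 (Penk, Rgs4, Foxp1 and Ebf1) and 3 fell (Pde1b, Rgs9 and Camk4), by limma at an adjusted p under 0.05. Among all 17389 named genes taken the same way, 13.1% were higher and 15.9% lower, so counts of 4 and 3 of 30 are near that background. The median difference of the 30 genes, SThdh111/111 minus SThdh7/7, was -0.13 on the log2 scale, beside -0.09 over all named genes. Over single probe sets, 6 of the 73 that passed the filter on dim values were called higher and 4 lower, where 22.4% of all 41409 kept probe sets were called. All 7 called genes were among the 12 above the floor in a line. Of the 18 others limma called none (1, Gpr6, had an unadjusted p under 0.05), and their differences had standard errors of 0.27 to 1.19, against 0.08 to 0.43 for the 12. The share called among the 11525 named genes above the floor in a line was not computed, so 7 of 12 has no background here. Penk, Rgs4 and Camk4 were above the floor on all arrays of their brighter line only, so floor status and calls are not independent.

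**Figure D2:**
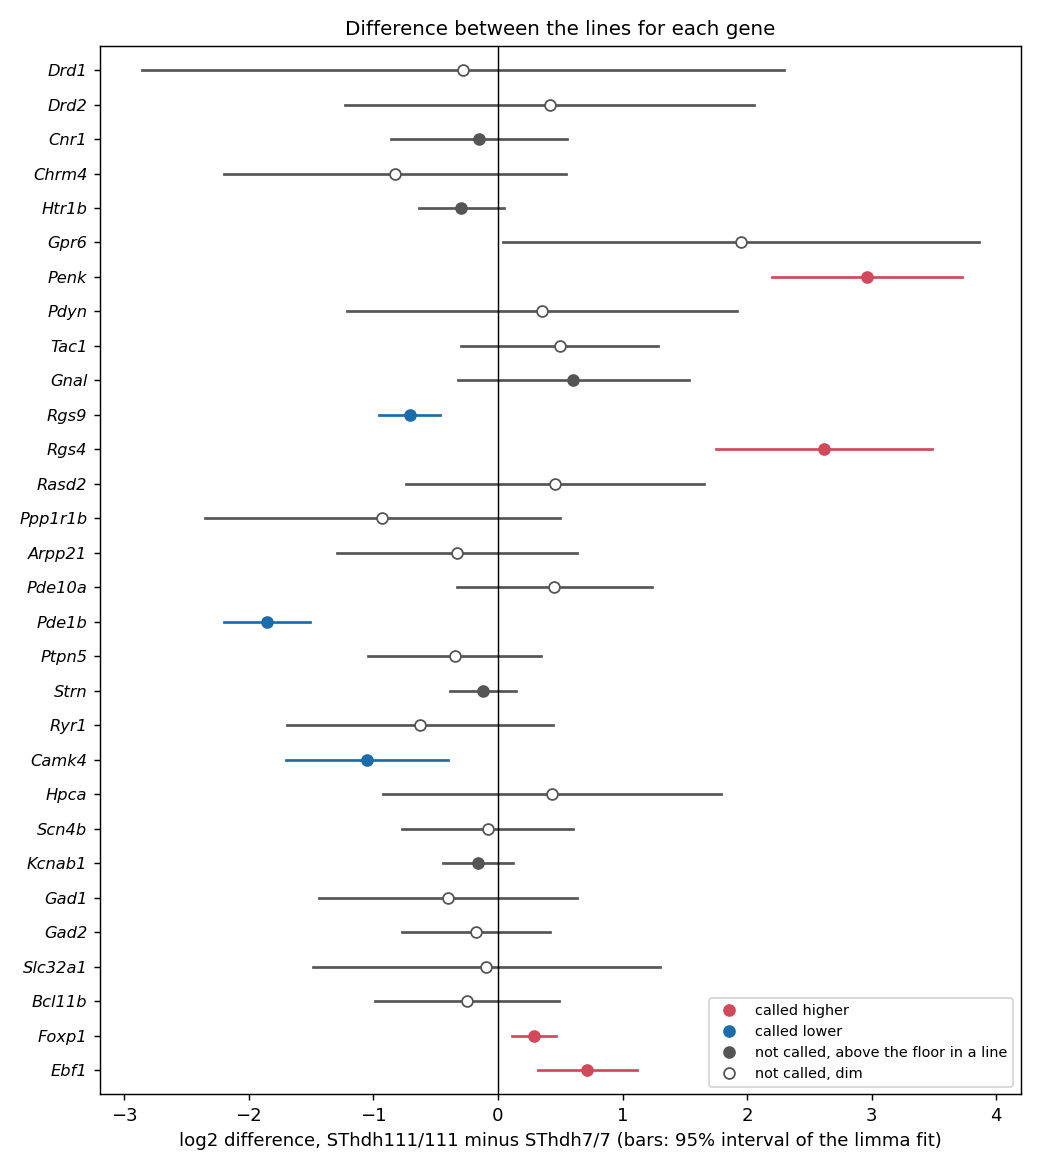
Log2 difference between the lines (SThdh111/111 minus SThdh7/7) for each of the 30 genes at its brightest probe set, with the 95% interval of the limma fit as bars. Filled points are genes above the floor on all arrays of a line. The interval of every called gene lies to 1 side of 0, and that of Drd1, a dim gene, runs from -2.86 to 2.30.

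Among the neuropeptide precursors, Penk rose. Its values were 7.81, 6.95, 6.25 and 5.66 (log2 intensity) in SThdh7/7 samples 1 to 4 and 9.63, 9.68, 9.54 and 9.68 in SThdh111/111. All SThdh111/111 arrays lay far above the floor and agreed closely, whereas only sample 1 of SThdh7/7 was above it. The means were 6.67 ± 0.92 and 9.63 ± 0.07 (SD, n = 4), a fitted difference of 2.96 ± 0.35 (SE; limma adjusted p = 2.5e-05). With the SThdh7/7 values below the floor set to it, the difference was at least 2.41. The fitted difference ranged from 2.63 to 3.67 over the 19 alternatives and kept its call in each. Penk has 1 probe set, so no second measurement on these arrays bears on it.

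The other peptide genes were not called. Tac1, the precursor of substance P, was at 6.10, 7.50, 7.42 and 6.61 in SThdh7/7 and at 7.01, 7.29, 7.89 and 7.42 in SThdh111/111. The groups overlapped, and the difference of 0.50 ± 0.37 (SE) was not called (limma adjusted p = 0.40). Pdyn, the precursor of dynorphin, lay below the floor on all 8 arrays, between 3.39 and 6.92 in SThdh7/7 and between 5.43 and 6.88 in SThdh111/111.

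None of the 6 measured receptors was called by limma, and 1 (Gpr6) had an unadjusted p under 0.05. Htr1b, a serotonin receptor that lowers transmitter release from axon terminals, was the brightest of them, at 9.60, 8.99, 9.23 and 8.93 in SThdh7/7 and 8.67, 8.88, 9.01 and 9.03 in SThdh111/111. The groups overlapped, and the difference was -0.29 with a 95% interval of -0.63 to 0.05. A second Htr1b probe set was below the floor on every array. Cnr1, the cannabinoid receptor, was at 7.26, 7.84, 7.66 and 7.03 in SThdh7/7 and at 6.79, 7.64, 7.94 and 6.81 in SThdh111/111, overlapping throughout, with a 95% interval of -0.86 to 0.56.

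The dopamine receptors were not clearly above background. Drd2 exceeded the floor in 2 samples of either line. Its single low value, 3.75 in SThdh7/7 sample 4, lay beside 6.93 to 7.67 in the other 3 samples. Drd1 reached at most 6.24 on any array at the probe set used, and its second probe set did not pass the filter. Chrm4, the muscarinic receptor of direct pathway neurons, ran from 2.95 to 4.82, and Gpr6, an orphan receptor of indirect pathway neurons, from 1.06 to 6.05. Gpr6 had a fitted difference of 1.95 with an interval of 0.04 to 3.86 (limma adjusted p = 0.15), all of it below the floor.

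The RGS genes of the list changed in opposite directions. Rgs4 and Rgs9 both encode RGS proteins, which speed up the shut-off of G protein signals, and Rgs9 is the one enriched in striatum. Rgs4 was at 5.24, 5.63, 5.92 and 4.43 in SThdh7/7 and at 7.76, 7.77, 8.08 and 8.07 in SThdh111/111. Every SThdh7/7 array lay below the floor and every SThdh111/111 array above it. Rgs4 was therefore at least 1.87-fold higher in SThdh111/111, and the fitted difference was 2.61 ± 0.40 (SE; limma adjusted p = 2.5e-04).

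A second Rgs4 probe set gave the same direction, at 3.22 to 4.69 against 7.33 to 7.95, or at least 1.65-fold (limma adjusted p = 6.4e-05). The third also had no overlap between the lines but was not called. Its SThdh7/7 values, 6.78, 7.05, 4.39 and 2.11, were widely spread, and the difference was 2.13 ± 0.88 (SE; limma adjusted p = 0.11).

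Rgs9 was at 9.24, 9.40, 9.41 and 9.36 in SThdh7/7 and at 8.73, 8.67, 8.68 and 8.50 in SThdh111/111. The lines were separated with little spread, and Rgs9 fell by 0.71 on the log2 scale, or 1.63-fold (SE 0.11; limma adjusted p = 3.7e-04). Its 2 dimmer probe sets differed by -0.30 and -0.43 and were not called, and with the mean over its probe sets the difference was -0.48 (limma adjusted p = 0.20).

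Gnal, the stimulatory G protein subunit that couples dopamine receptors to adenylyl cyclase in striatum, was at 8.17, 7.79, 7.24 and 5.75 in SThdh7/7 and at 8.16, 7.80, 7.88 and 7.52 in SThdh111/111. The groups overlapped, and the difference of 0.60 ± 0.43 (SE) was not called (limma adjusted p = 0.38). Without SThdh7/7 samples 1 and 2 it was 1.35 (limma adjusted p = 0.037), without SThdh7/7 sample 4, the low value, it was 0.11 (limma adjusted p = 0.84), and with the mean over the probe sets -0.092. Rasd2, which encodes the striatal small GTPase Rhes, lay around the floor at 4.63 to 7.67 in SThdh7/7 and 6.76 to 7.33 in SThdh111/111.

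In cAMP and phosphatase signalling, Pde1b stood out. It encodes a calcium- and calmodulin-dependent phosphodiesterase of cyclic nucleotides. Its values were 9.79, 9.87, 10.08 and 10.02 in SThdh7/7 and 7.91, 8.35, 8.38 and 7.72 in SThdh111/111, above the floor on all 8 arrays. The lines did not overlap, and Pde1b fell by 1.85 on the log2 scale, or 3.61-fold (SE 0.16; limma adjusted p = 1.1e-06). This was the largest fall of the list, ranged from -1.96 to -1.70 over the 19 alternatives and kept its call in each. Like Penk, it rests on 1 probe set.

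Strn, which encodes the calmodulin-binding scaffold striatin, was bright at all 3 of its probe sets and called at none. Its brightest was at 9.46, 9.32, 9.07 and 9.04 in SThdh7/7 and at 9.06, 9.07, 9.20 and 9.09 in SThdh111/111. The lines overlapped, and the 95% interval of the difference was -0.38 to 0.15. The other probe sets differed by 0.27 ± 0.26 and -0.28 ± 0.24 (SE), in opposite directions.

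The remaining genes of this group were dim by the main floor. Ptpn5, the striatal-enriched tyrosine phosphatase, exceeded the floor in 3 samples of either line and differed by -0.35 ± 0.32 (SE). Pde10a, the main phosphodiesterase of projection neurons, exceeded it in 1 SThdh7/7 and 2 SThdh111/111 samples and differed by 0.45 ± 0.36 (SE). Arpp21, a cAMP-regulated phosphoprotein, exceeded it in 1 sample of either line. Ppp1r1b was at 4.41 to 6.72 in SThdh7/7 and at 4.15 to 5.98 in SThdh111/111, below the floor throughout.

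Of the calcium genes, Camk4 fell and the others were dim. Camk4 encodes a calmodulin-dependent kinase that phosphorylates the transcription factor CREB. It was at 8.16, 8.44, 7.62 and 7.96 in SThdh7/7 and at 7.48, 6.66, 7.41 and 6.42 in SThdh111/111. The lines did not overlap, with SThdh111/111 samples 2 and 4 below the floor. Camk4 fell by 1.05 on the log2 scale (SE 0.30; limma adjusted p = 0.022), or by at least 0.81 with those 2 values set to the floor.

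That call was near its threshold. It was lost without SThdh7/7 sample 1 (difference -1.01) or sample 2 (-0.92), without SThdh111/111 sample 2 (-0.94) or sample 4 (-0.86), and without both SThdh7/7 samples 1 and 2 (-0.80, limma adjusted p = 0.18). It was also lost when the fit had no intensity trend (limma adjusted p = 0.050). The other 3 kept Camk4 probe sets, none of them above the floor on all arrays of a line, differed by -0.04, 0.87 and -0.03, and the mean over the probe sets was -0.064. Ryr1, a calcium release channel best known from skeletal muscle, was at 5.83 to 6.84 in SThdh7/7 and 5.13 to 6.61 in SThdh111/111 at its brightest probe set, and the other exceeded the floor in SThdh7/7 sample 2 alone, at 7.23. Hpca, the neuronal calcium sensor hippocalcin, exceeded the floor on 1 array only, SThdh111/111 sample 3 at 7.10.

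For the channel subunits, the 2 bright probe sets of Kcnab1 differed. Kcnab1 encodes a cytoplasmic subunit of voltage-gated potassium channels. The brighter probe set was at 8.83, 9.28, 9.06 and 9.19 in SThdh7/7 and at 8.89, 8.98, 9.07 and 8.77 in SThdh111/111, overlapping, with an interval of -0.45 to 0.12. The dimmer was at 8.57, 8.56, 8.59 and 8.09 against 7.87, 7.86, 7.78 and 7.99, without overlap. There Kcnab1 fell by 0.58 on the log2 scale (SE 0.18; limma adjusted p = 0.030). Scn4b, the sodium channel beta subunit, lay at the floor, at 6.74 to 7.70 in SThdh7/7 and 6.74 to 7.31 in SThdh111/111.

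By the main floor, the machinery of GABA was not clearly above background. Gad1 and Gad2 encode the enzymes that make GABA, and Slc32a1 the carrier that loads it into vesicles. Gad2 exceeded the floor in 3 samples of either line, at 7.52, 7.49, 7.32 and 6.82 and at 6.98, 7.13, 7.15 and 7.20, a difference of -0.17 ± 0.27 (SE). At their brightest probe sets, Gad1 stayed below the floor on all 8 arrays and Slc32a1 was between 3.27 and 4.85. The other Gad1 probe set was above it in SThdh7/7 sample 1 alone, at 7.13.

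Among the transcription factors, Foxp1 and Ebf1 were bright in both lines. Foxp1, a forkhead factor of developing and adult projection neurons, was at 10.32, 10.33, 10.53 and 10.37 in SThdh7/7 and at 10.78, 10.62, 10.74 and 10.56 in SThdh111/111. The lines were close but did not overlap, and Foxp1 rose by 0.29 ± 0.08 (SE), or 1.22-fold (limma adjusted p = 0.022). It has 8 probe sets. The 6 that were above the floor on all arrays of both lines were each higher in SThdh111/111, by 0.13 to 0.47, and 2 of them were called.

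The second called Foxp1 probe set was at 9.54 to 9.74 in SThdh7/7 and at 9.94 to 10.36 in SThdh111/111, without overlap, a rise of 0.47 ± 0.11 (SE; limma adjusted p = 0.0060). At the brightest probe set the Foxp1 call was lost without SThdh7/7 sample 1 (0.26) or 2 (0.27), without SThdh111/111 sample 1 (0.25) or 3 (0.26), and without SThdh7/7 samples 1 and 2 together (0.22, limma adjusted p = 0.13). It was also lost when the fit had no intensity trend (limma adjusted p = 0.12). The other 2 probe sets were dim, with differences of -1.18 ± 0.62 and 0.55 ± 0.81 (SE), and with them the mean over all 8 was 0.17 (limma adjusted p = 0.49).

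Ebf1, a helix-loop-helix factor needed for direct pathway neurons and also active in B cells and fat cell precursors, was at 8.16, 7.63, 8.25 and 8.41 in SThdh7/7 and at 8.95, 8.98, 8.77 and 8.62 in SThdh111/111. The lines did not overlap, and Ebf1 rose by 0.72 ± 0.18 (SE), or 1.65-fold (limma adjusted p = 0.011). Its other 3 bright probe sets differed by 0.37, 0.19 and 0.02 and were not called, and the mean over its probe sets was 0.18 (limma adjusted p = 0.46). Bcl11b, a zinc finger factor required for projection neuron differentiation, lay around the floor, at 7.79, 6.83, 7.13 and 6.71 against 7.20, 6.92, 6.41 and 6.94.

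**Figure D3:**
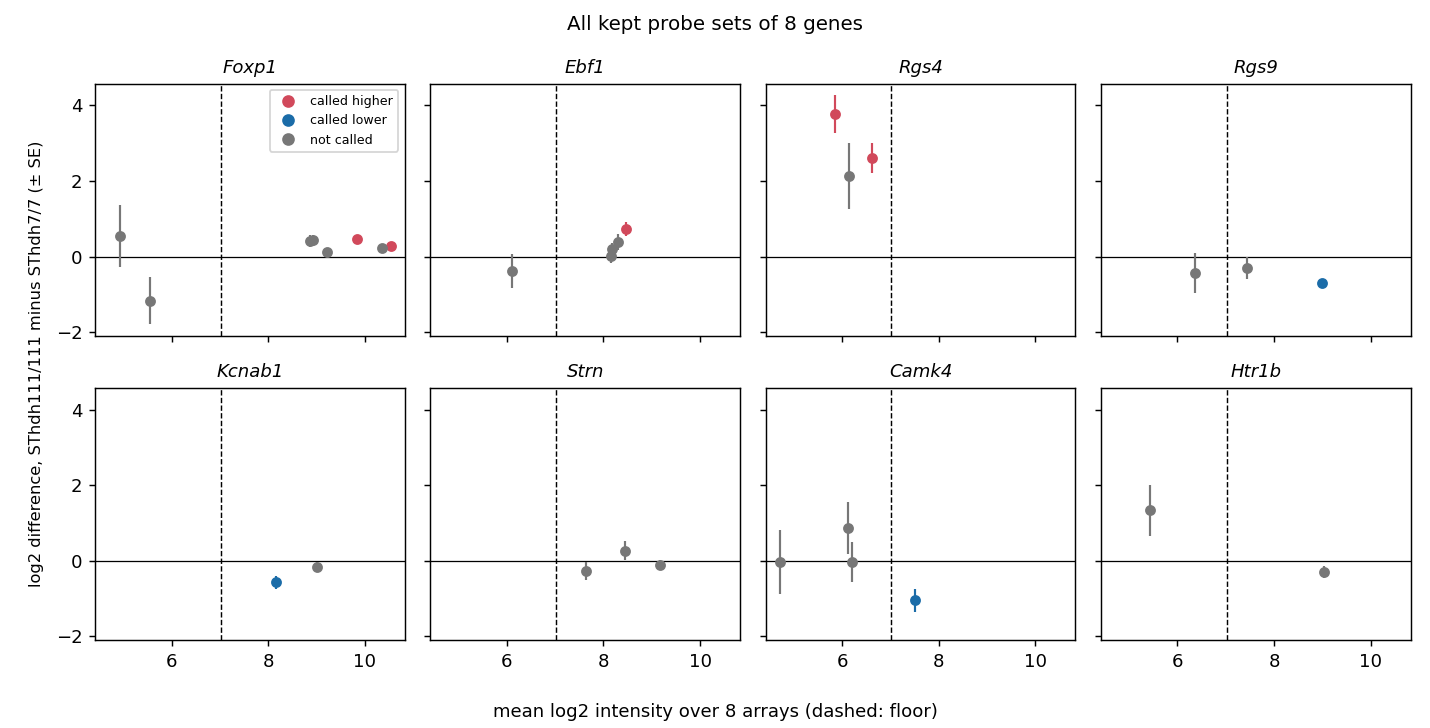
Log2 difference between the lines (SThdh111/111 minus SThdh7/7, ± SE) against mean log2 intensity for every kept probe set of 8 genes that have more than 1, with the floor dashed at 7.02. The 6 bright Foxp1 probe sets all lie above 0 and the 3 of Rgs4 lie at 2.13 to 3.78, whereas for Kcnab1, Camk4 and Ebf1 a single probe set was called.

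The upstream sequence of 4 called genes is shown because cAMP signalling, in which much of the list takes part, acts on transcription through CREB and its response element. Promoter sequences from RefSeq (build GRCm38.p6) were found for 26 of the 32 genes, at 49 annotated starts. The 250 bases before each start were searched on both strands for the full element TGACGTCA and its shorter form TGACG, which the full element contains. The shorter element was present before 8 of the 49 starts (16.3%), against 17.8% of all 32851 starts in the table, and the full element before 1, that of Gpr6, against 1.55%. Each line gives the 250 bases before a start, 5′ to 3′ on the gene's strand, with shorter elements in capitals (TGACG or its reverse complement). Where a gene has several starts, the one with a match is shown, otherwise the most upstream.
Rgs4, higher in SThdh111/111, chr1:169747643-169747892, minus strand: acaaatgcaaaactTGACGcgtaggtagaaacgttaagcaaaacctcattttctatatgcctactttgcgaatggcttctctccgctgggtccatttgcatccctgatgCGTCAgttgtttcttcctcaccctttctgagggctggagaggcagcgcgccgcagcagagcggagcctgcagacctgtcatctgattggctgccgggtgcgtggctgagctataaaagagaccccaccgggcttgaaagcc
Foxp1, higher, chr6:99028299-99028548, minus strand: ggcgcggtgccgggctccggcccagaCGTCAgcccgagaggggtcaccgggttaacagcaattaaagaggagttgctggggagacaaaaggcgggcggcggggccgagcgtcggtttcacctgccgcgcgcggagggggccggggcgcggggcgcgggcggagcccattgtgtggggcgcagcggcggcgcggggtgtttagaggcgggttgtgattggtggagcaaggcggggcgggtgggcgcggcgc
Pde1b, lower, chr15:103502784-103503033, plus strand: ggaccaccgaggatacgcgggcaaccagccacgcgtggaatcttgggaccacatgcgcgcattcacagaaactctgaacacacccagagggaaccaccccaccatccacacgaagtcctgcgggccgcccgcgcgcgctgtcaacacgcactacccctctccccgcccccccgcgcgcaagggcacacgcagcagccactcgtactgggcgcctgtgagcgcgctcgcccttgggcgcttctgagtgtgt
Rgs9, lower, chr11:109298182-109298431, minus strand: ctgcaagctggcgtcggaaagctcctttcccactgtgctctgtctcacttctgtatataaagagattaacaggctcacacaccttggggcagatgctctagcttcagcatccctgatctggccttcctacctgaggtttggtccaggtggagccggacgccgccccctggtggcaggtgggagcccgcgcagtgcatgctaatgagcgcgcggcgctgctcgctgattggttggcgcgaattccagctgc

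Rgs4 has shorter elements beginning 236 and 141 bases before its start, and Foxp1 has 1 beginning 224 bases before the start shown, of 3 in the table. The stretches of Pde1b and Rgs9 hold none. Ebf1, also called higher but not shown, has 2 starts in the table and no shorter element before either. Whether presence of the element goes with the direction of the calls was not tested. No promoter was found for Penk or Camk4. Which start was used in these lines was not measured, a match is only a run of letters, and its absence concerns only this window.

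Of 60 listed genes of cAMP, dopamine, glutamate and opioid signalling that are not on the main list, 53 were measured, of which 5 rose and 7 fell, with a median difference of -0.19. These counts are near the 13.1% higher and 15.9% lower among all named genes, and most partners were not called. Rgs2, another RGS gene, rose from 6.89 ± 0.48, with 1 SThdh7/7 sample over the floor, to 9.50 ± 0.09 (log2 intensity, SD, n = 4). Ppp3ca, the calcineurin catalytic subunit, rose by 1.70 ± 0.12 (SE). Gnb5, the G protein beta subunit that pairs with Rgs9 protein, rose by 0.69 ± 0.09 (SE). With the mean over probe sets its difference was 0.72 and not called (limma adjusted p = 0.12).

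Of the partners that fell, Pde4d, a cAMP phosphodiesterase, fell by 1.54 on the log2 scale, a call also lost with the mean over probe sets (-0.90). It exceeded the floor in 2 SThdh111/111 samples, and the fall was at least 1.37 with dimmer values set to the floor. Prkar2a, a regulatory subunit of the cAMP-dependent kinase, fell by 0.60 and kept its call in every alternative. Ppp2r2a, a regulatory subunit of protein phosphatase 2A, fell by 0.41, a call lost with arrays centred on their medians (-0.25) and with the mean over probe sets (-0.34). The count of partners called lower was 3 in place of 7 under each of those settings.

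Of 23 measured transcription factors of the striatal lineage, 4 were called higher and 3 lower, also near the 13.1% and 15.9% of all named genes. Dlx2, a homeobox factor of the ganglionic eminence, exceeded the floor in 1 SThdh7/7 sample. It rose by 1.86, and by at least 1.14 when dimmer values were raised to the floor. Nr4a1 and Pbx3 rose by 1.25 and 0.80. Meis2 fell by 1.78 on the log2 scale, a call lost when probe sets ending in _x_at, _s_at or _a_at were left out (-0.64). Ikzf2, a zinc finger factor, fell by 1.32, a call lost with the mean over probe sets (-1.05). Sox11, above the floor in 2 SThdh111/111 samples, fell by 0.91, or by at least 0.72 with dimmer values set to the floor. It was not called in 6 of the 8 fits with 1 sample left out, in which its difference was -0.95 to -0.75. The call was also lost with quantile normalization, with centring and with a replicate block. Dimmer Sox11 probe sets gave a larger fall. The difference was -2.90 without suffixed probe sets (limma adjusted p = 0.0093) and -2.06 with the mean over probe sets (limma adjusted p = 0.0038).

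Markers of other cell types that the lines could share with the list are given for comparison. Among all named genes 13.1% were higher and 15.9% lower, and the counts below are to be read beside these shares. Of 19 measured pan-neuronal markers 4 fell by limma, among them Map2, Ncam1 and Uchl1, and 0 rose, also at an unadjusted p under 0.05. The count of falls is near the share of all named genes. Their summed intensity was 5536 to 5990 in SThdh7/7 and 3593 to 3931 in SThdh111/111. Tubb3, Snap25 and Elavl4 were below the floor on every array. Of 14 interneuron markers 1 was called higher, Kit, named after its values were seen. Kit values of the lines overlapped, and it was not called in 9 of 19 alternatives. The interneuron markers had sums of 1883 to 3389 and 1857 to 2528, and Slc18a3, Lhx8 and Nkx2-1 were below the floor everywhere. Of 8 markers of excitatory cortical neurons 0 were called by limma and 0 had an unadjusted p under 0.05, and their sums were 604 to 1035 and 539 to 1057.

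Mesenchymal markers had the largest median difference of these lists, 1.19. Of 15 measured, 9 rose and 3 fell, and their summed intensity was 94776 to 99454 in SThdh7/7 and 185675 to 205731 in SThdh111/111. Astrocyte markers summed to 6482 to 6995 and 8308 to 8921, with 2 of 10 higher and 1 lower, and muscle markers to 1132 to 1747 and 917 to 1082, with 1 of 9 lower, a call lost in 13 of 19 alternatives. Oligodendrocyte markers gave 1 higher and 1 lower of 7, with sums of 2164 to 2703 and 2166 to 2330, and microglia markers 2 and 1 of 10, with sums of 3355 to 4146 and 2888 to 3132. Single bright genes weigh heavily in such sums. At the mean log2 value, the astrocyte marker Gja1 rose from an intensity of 4209 to 6913, while Aldh1l1 fell from 1567 to 284. Slc1a3 also rose. The microglia marker Cd68 fell from 1507 to 447, while Csf1r and Tmem119 rose. Beside all of these counts, the shares among all named genes were 13.1% higher and 15.9% lower. Each genotype is 1 line, and the level of a marker does not show that cells of its type were present. In RNA from whole cultures, fewer cells with a transcript and less of it per cell cannot be told apart. Any link of these markers to the rises of Penk, Rgs4, Foxp1 and Ebf1 or the falls of Pde1b, Rgs9 and Camk4 was not tested.

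**Figure D4:**
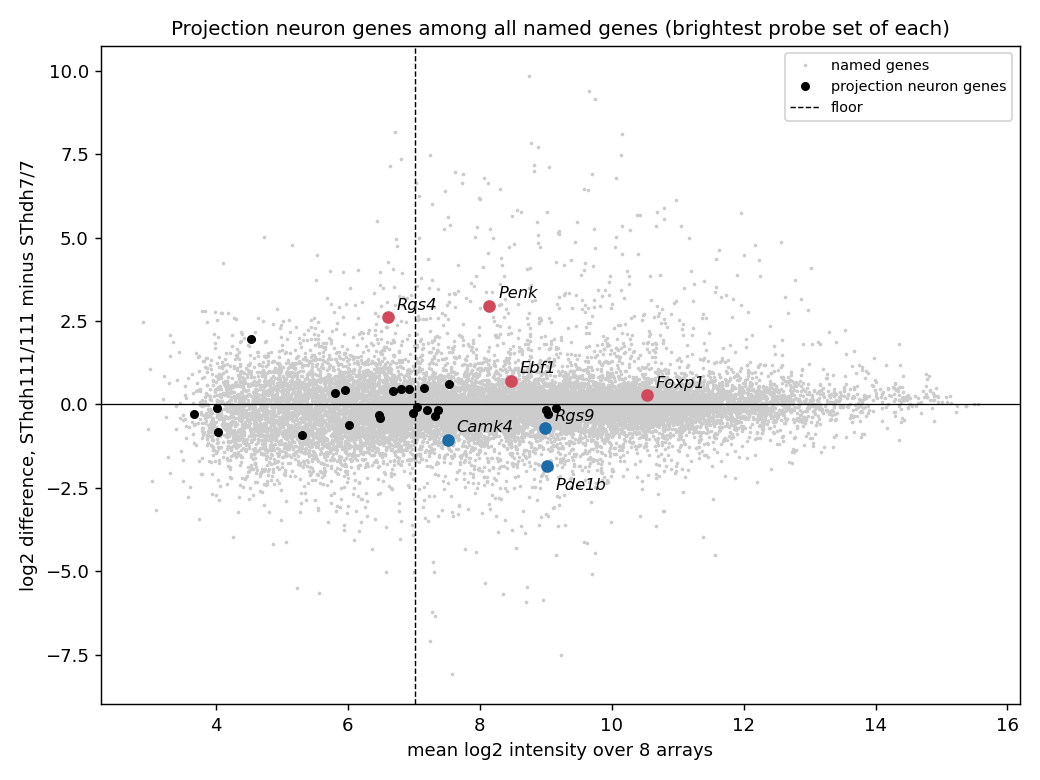
Log2 difference between the lines (SThdh111/111 minus SThdh7/7) against mean log2 intensity over 8 arrays for all 17389 named genes (grey) and the 30 genes of the list (black, called higher in red, called lower in blue), each at its brightest probe set. Penk is at 2.96, Rgs4 at 2.61 and Pde1b at -1.85, the SThdh7/7 values of Rgs4 and most of those of Penk being below the floor, and the genes below the floor on some or all arrays of both lines lie between -0.93 and 1.95.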

How the data were processed

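Total RNA was isolated with Tri-reagent, purified on RNeasy columns, biotin-labelled and hybridised to Affymetrix mouse arrays, per the labels' protocols. The deposited intensity values are linear, 1 per probe set and array. The submitters' processing notes name only GCRMA, with no version, but the values are linear with a 2% trimmed mean of 500.0 on every array, so the tool that made them is not settled. Signals of this kind are noisy when dim.

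Values were taken to log2. After the 64 controls were removed, probe sets reaching a log2 of 4 on 4 or more arrays were kept (41409 of 45037) and fitted with limma 3.58.1 in R 4.3.3 (lmFit, eBayes with an intensity trend), two-sided, with Benjamini-Hochberg adjustment over all kept probe sets. The fit was also run on simulated data with independent normal noise and no line or batch effect. That run checks the code and does not bear on the calls. Symbols come from the platform annotation, updated through the GRCm38.p6 gene table; 34945 probe sets had 1 gene, 932 several and 9160 none. A gene's call is that of its brightest kept probe set. Sums add linear intensities of these probe sets. All members are described, with values per sample where a gene was called or above the floor in a line. Of the 2 partner lists, up to 3 called genes per direction with the lowest adjusted p, and above the floor in the brighter line, are named. Alternatives changed the filter, scaling, variance trend, array weights, probe sets, samples and floor; those for partner and marker lists were added after seeing the data. The members and lists were chosen with earlier results of these data known. Sample numbers do not pair the lines. Figures were drawn with matplotlib 3.10.9.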

Additional observations from a re-analysis of the deposited data

Results flagged for a closer look

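Gad1 in SThdh111/111 sample 2 stood apart from the other samples of its line, at a log2 intensity of 4.89 against 6.68 to 6.87, all of them below the floor. The gap to the nearest sample was 0.90 of the group's range, above the 95% critical value of Dixon's test for 4 samples. It was the only such value among 60 groups of 4 looked at, and chance flags about 1 group in 20.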

How the results depend on the processing

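Of the 30 genes, 4 were called higher and 3 lower, and the counts were again 4 and 3 with array weights, after centring or quantile normalization, without suffixed probe sets, and when the filter was dropped or raised to 6. They were 3 and 2 with the filter at 8, where 8 genes were tested (25 at 6) and Rgs4 and Camk4 were not. With no intensity trend they were 3 and 2, Foxp1 and Camk4 losing their calls. Without SThdh7/7 samples 1 and 2 they were 5 and 2. There Foxp1 and Camk4 were not called, while Gnal and a gene outside the 12 above the floor, not identified here, were called higher. With each sample left out in turn they were 3 to 4 and 2 to 3. Without SThdh7/7 sample 1, the 4 lack Foxp1 and include a gene outside those 12. Averaging a gene's probe sets gave 2 higher (Penk and Rgs4) and 2 lower (Pde1b and Kcnab1). The list's median difference ran from -0.22 to 0.04, so its sign is not fixed. Without probe sets ending in _x_at, _s_at or _a_at, 6132 probe sets were called in all, from fewer tested, in place of 9288. The number of genes above the floor in a line was 12, and 19 with each array's own floor or with SThdh7/7 samples 1 and 2 left out. Differences that were not called changed sign for Cnr1 (0.0019 after centring; -0.37 to 0.017 with 1 sample left out), Htr1b (0.52 with the mean over probe sets), Gnal (-0.092 likewise) and Strn (0.037 after centring; 0.052 without SThdh7/7 samples 1 and 2); the cause was not tested. With the sample number as a replicate block, 4 genes were higher, 3 lower and 8828 probe sets called. Same-numbered samples deviated together with correlations of -0.014 to 0.009, and 1 of 4 correlated best with its own number. By the main floor, signal is the limit for most of the list: a gene below the floor has no measured level here.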
